A study of Arabidopsis thaliana with 8 samples.

Results

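Aux/IAA proteins and auxin response factors (ARF) are the nuclear repressors and the DNA-binding transcription factors of auxin signalling, and their genes were compared between roots and flower buds of Arabidopsis thaliana. The members were every gene whose symbol or synonym is IAA or ARF followed by a number, where IAA is an Aux/IAA gene and ARF an auxin response factor. The ADP-ribosylation factors, which share the letters ARF, were left out. This gave 48 genes, 28 Aux/IAA and 20 ARF, among 25383 loci with a matched probe on the array. A probe was matched for 43 of the 48, and 37 of these, 25 Aux/IAA and 12 ARF, were bright enough to be tested.

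Total RNA was measured on 8 one-colour arrays, 4 of roots and 4 of flower buds, with the dye Cy3. All plants were Col-0 aged 6 weeks and grown in hydroponics, and the labels give no genotype or treatment that differs between the groups, so the comparison is between organs. Each replicate was tissue pooled from 8 to 10 plants, and p-values therefore measure the spread between pools. Whole organs were used, so fewer cells of a type and less RNA per cell cannot be told apart in any value below.

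When auxin is low, Aux/IAA proteins bind ARF proteins at auxin-responsive promoters and recruit TOPLESS co-repressors. Auxin joins Aux/IAA proteins to TIR1/AFB F-box receptors through a short degron, the Aux/IAA proteins are degraded, and the ARF proteins are released. Many Aux/IAA genes are themselves switched on by auxin, which makes them both repressors and early targets. ARF proteins with a glutamine-rich middle region activate transcription, and most others act as repressors. Several ARF transcripts are cut by guidance of miR160, miR167 or the trans-acting small RNAs of TAS3.

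The tissues were checked against marker genes before the members were read. All 7 flower markers were higher in buds, with a summed signal of 33.9 to 41.9 on bud arrays and 0.291 to 0.372 on root arrays, in units of each array's 75th percentile. All 7 root markers were higher in roots, with sums of 109 to 128 on root arrays and 0.188 to 0.321 on bud arrays. Of the flower markers 5, and of the root markers 6, were not well above background on all 4 arrays of the other organ. Such genes enter the test through the organ where they are bright, so their direction was largely fixed. Summed signals of markers of other cell types also differed between the organs. The 4 markers of dividing cells summed to 11.7 to 15.4 in buds and 2.33 to 3.24 in roots, and the 4 xylem markers to 1.84 to 2.22 in buds and 9.26 to 13.2 in roots. The 3 phloem markers summed to 3.16 to 3.64 in buds and 5.98 to 7.33 in roots, though SUC2 among them differed by less than 2-fold. The 5 tapetum and pollen markers summed to 30.0 to 54.3 in buds and 0.013 to 0.0341 in roots, where at most 1 of the 5 was well above background on any array. The 5 green tissue markers were all higher in buds, with sums of 279 to 298 against 0.959 to 1.36. Of these 5, 3 were not well above background on all 4 root arrays. The part of these cell types in the differences reported here was not tested.

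Differences are flower bud minus root in log2 signal relative to the array's 75th percentile, given with the standard error of a limma fit over 22263 genes with 4 arrays per tissue. A gene was called when its p-value, adjusted by the Benjamini-Hochberg method over all tested genes, was under 0.05 and its difference was 2-fold or more. By this rule 17 of the 37 tested members (45.9%) were called, 7 higher in buds and 10 higher in roots. Of all tested genes 54.9% were called, 30.1% higher in buds and 24.8% higher in roots. All 37 members were well above background on all 8 arrays, and 46.9% of the genes that met this condition were called, 22.3% higher in buds and 24.7% higher in roots. The members' share was thus close to the background, and it says nothing particular about these families. Of the 12220 calls among all genes, 54.9% were higher in buds, against 68.9% when arrays were scaled on 6 reference genes. The majority turned to roots, with 47.4% of calls higher in buds, when the fit was limited to genes detected well above background on each of the 8 arrays. It also turned with normexp background correction, at 49.3%, and without a filter on dim probes, at 49.5%.

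Among the Aux/IAA genes 4 were higher in buds, 7 were higher in roots and 14 were not called, with a median difference of -0.18. Among the ARF genes 3 were higher in buds, 3 higher in roots and 6 not called, with a median of 0.08. The median was 0.14 over all tested genes and -0.01 over the 18003 genes well above background on all 8 arrays, as every tested member was. The median absolute difference was 0.88 for Aux/IAA and 1.01 for ARF, close to the 0.92 of those 18003 genes, and 1.19 for all tested genes. Root and bud arrays did not overlap for 17 of the 25 Aux/IAA and 9 of the 12 ARF genes, against 77.0% of the 18003 genes and 79.1% of all tested genes. No member reached 16-fold, a size at which 7.65% of the 18003 genes and 17.0% of all tested genes were called. The plot of tissue differences places each member between AXR3 at the root end and IAA5 and ARF8 at the bud end.

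**Figure D1:**
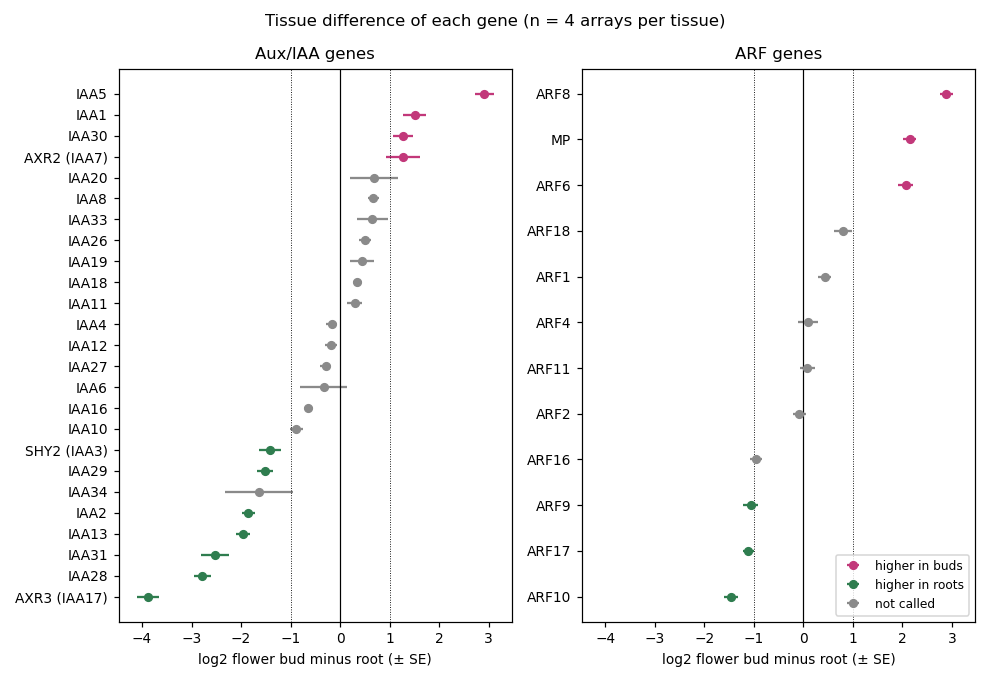
Tissue difference of each tested Aux/IAA gene (left) and ARF gene (right), as log2 flower bud minus root with the standard error, n = 4 arrays per tissue; dotted lines mark 2-fold. AXR3 lies lowest at -3.89, IAA5 and ARF8 highest at 2.91 and 2.89, and grey points were not called.

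The 3 ARF activators reported here, MP, ARF6 and ARF8, were all higher in buds. MP, also called MONOPTEROS or ARF5, is required for the embryonic root, for vascular strands and for the initiation of flowers. Root replicates 1 to 4 read -0.08, -0.09, 0.21 and -0.26 in log2 signal, and bud replicates 1 to 4 read 2.15, 1.91, 2.24 and 2.06. The bud arrays lay far above the root arrays with no overlap, and the difference was 2.15 ± 0.12, or 4.43-fold (adjusted p = 8.03e-07).

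ARF6 and ARF8 act together in the growth of stamen filaments and the maturation of the flower, and both are targets of miR167. ARF6 read 0.05, -0.26, 0.07 and -0.41 on the root arrays and 1.86, 1.85, 2.22 and 1.79 on the bud arrays. Its difference was 2.07 ± 0.15, or 4.20-fold (adjusted p = 3.27e-06). The values of ARF8 were -1.06, -1.16, -0.70 and -1.10 in roots and 1.85, 1.83, 2.08 and 1.78 in buds. Its difference of 2.89 ± 0.13, or 7.42-fold, was the largest among the tested ARF genes (adjusted p = 1.48e-07). For both genes every bud array was higher than every root array, and bud replicate 3 was the highest.

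ARF10, ARF16 and ARF17, the repressor-type ARF genes targeted by miR160, ran the other way, and 2 of the 3 were called. ARF10 and ARF16 restrict cell division in the root cap. The log2 signal of ARF10 was 0.66, 0.93, 1.16 and 0.88 in roots and -0.37, -0.49, -0.60 and -0.75 in buds. It was 2.75-fold higher in roots, with a difference of -1.46 ± 0.13 (adjusted p = 1.35e-05). The call of ARF10 rests on 1 of its probes. A second probe, well above background on 7 arrays, gave 0.06 ± 0.27 (adjusted p = 0.83) when all probes were fitted. The last probe was well above background on 3 arrays and was not tested.

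ARF17 contributes to pollen wall formation in the anther. It read -0.40, -0.17, -0.04 and -0.13 in roots and -1.12, -1.28, -1.36 and -1.41 in buds, without overlap. The difference was -1.11 ± 0.11, or 2.15-fold higher in roots (adjusted p = 2.29e-05). ARF16 read 0.38, 0.14, 0.36 and 0.27 in roots and -0.53, -0.51, -0.66 and -0.97 in buds. Its tissues did not overlap either, but at -0.95 ± 0.12, or 1.93-fold, it stayed just under the 2-fold limit (adjusted p = 0.00013).

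Of the ARF genes outside these groups, ARF9 was called. ARF9 takes part in keeping suspensor cells from embryonic fate. Its log2 signal was 0.94, 0.75, 0.80 and 0.30 in roots and -0.44, -0.49, -0.28 and -0.27 in buds. The difference of -1.07 ± 0.15, or 2.09-fold higher in roots, was the smallest among the called members (adjusted p = 0.00018). Without root replicate 1 it was -0.99 and no longer called.

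ARF1 and ARF18 leaned towards buds by less than 2-fold. ARF1, a repressor that acts in floral organ shedding, was 0.43 ± 0.13 higher (adjusted p = 0.0128), with 1.17 to 1.31 on root arrays and 1.43 to 1.98 on bud arrays. ARF18 was 0.80 ± 0.18 higher (adjusted p = 0.00363), with -2.13 to -1.38 in roots and -1.13 to -0.69 in buds. Neither gene overlapped between the tissues.

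ARF2, ARF4 and ARF11 overlapped between the tissues and did not pass the test. ARF2, a repressor that limits organ and seed size, differed by -0.08 ± 0.13 (adjusted p = 0.587). ARF4, which takes part in organ polarity and is a target of TAS3 small RNAs like ARF2, differed by 0.09 ± 0.20 (adjusted p = 0.698). The difference of ARF11 was 0.08 ± 0.15 (adjusted p = 0.618). The sign of each of these 3 turned under some other scaling or when 1 array was left out.

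**Figure D2:**
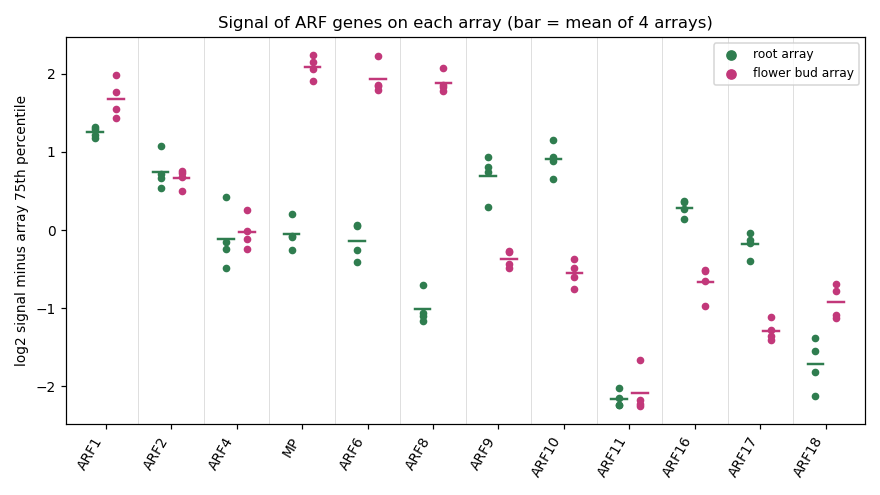
Log2 signal minus the array's 75th percentile for the 12 tested ARF genes on each array, with roots in green, flower buds in magenta and the mean of 4 arrays as a bar. MP, ARF6 and ARF8 separate upwards in buds, ARF9, ARF10, ARF16 and ARF17 separate downwards, and ARF2, ARF4 and ARF11 overlap.

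The remaining ARF genes gave no testable signal. ARF12, ARF13, ARF14, ARF15, ARF20, ARF21 and ARF22 are closely similar genes on chromosome 1, and cross-hybridisation between them was not tested. ARF15 and ARF20 had no matched probe. ARF13, ARF14 and ARF21, and also ARF23 outside the group, were not well above background on any array. ARF12 was well above background on 1 root array and on no bud array. ARF22 came closest to the filter, with 3 of 4 root arrays and no bud array well above background. Its log2 signal was -6.98, -6.86, -5.57 and -6.22 in roots and -9.10, -9.11, -10.48 and -10.38 in buds.

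The 11 called Aux/IAA genes included 9 of the 20 tested genes with a canonical degron, 3 of them higher in buds and 6 higher in roots. AXR3 (IAA17) showed the largest difference of all members. Gain-of-function alleles of this gene stabilise the protein and disturb root gravitropism. Its log2 signal was 4.06, 4.40, 4.05 and 3.77 in roots and 0.68, 0.33, 0.05 and -0.32 in buds. The root arrays were all far higher, by 14.8-fold, with a difference of -3.89 ± 0.23 (adjusted p = 8.31e-07). A second probe of AXR3 gave -3.86 ± 0.21.

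IAA28, a repressor of lateral root initiation, came next among the genes higher in roots. It read 2.75, 2.60, 2.57 and 2.25 in roots and -0.19, -0.19, -0.65 and 0.07 in buds. The difference was -2.78 ± 0.17, or 6.88-fold (adjusted p = 1.24e-06), with no overlap. IAA13, a close relative of the embryo regulator IAA12, read 2.76, 3.09, 3.42 and 3.00 in roots and 1.14, 1.16, 0.99 and 1.17 in buds. It was 3.87-fold higher in roots, with a difference of -1.95 ± 0.14 (adjusted p = 3.1e-06). A second probe of IAA13 was well above background on 4 arrays and was not tested.

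IAA2, an auxin-induced member, read 3.02, 2.76, 2.85 and 3.02 in roots and 1.26, 1.20, 0.77 and 1.02 in buds. Its difference was -1.85 ± 0.13, or 3.61-fold (adjusted p = 2.82e-06), and a second probe gave -1.94 ± 0.13. SHY2 (IAA3) sets the size of the root meristem where cytokinin and auxin signals meet. It read 1.01, 0.93, 0.80 and 0.13 in roots and -1.01, -0.74, -0.64 and -0.40 in buds. The lowest root array was root replicate 4, which still lay above every bud array, and the difference was -1.41 ± 0.22, or 2.66-fold (adjusted p = 0.000343). IAA29, a target of light-regulated PIF factors, was dim in both organs, at -4.90 to -4.41 in roots and -6.46 to -5.93 in buds. It was 2.84-fold higher in roots, by -1.51 ± 0.16 (adjusted p = 3.63e-05).

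Towards buds the largest Aux/IAA difference was that of IAA5, an early auxin-induced gene. It read -5.31, -5.14, -5.75 and -5.93 in roots and -2.47, -2.47, -2.64 and -2.91 in buds. Every bud array was higher, and the difference was 2.91 ± 0.20, or 7.53-fold (adjusted p = 2.09e-06). IAA1, whose stabilising mutation confers auxin resistance, read -1.92, -2.11, -2.26 and -2.90 in roots and -0.62, -0.51, -1.03 and -0.99 in buds. Its difference was 1.51 ± 0.23, or 2.85-fold (adjusted p = 0.000315), again without overlap.

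AXR2 (IAA7), whose gain-of-function allele makes roots agravitropic, was higher in buds, in the direction opposite to its relative AXR3. It read 0.53, 0.68, -0.01 and -0.25 in roots and 2.16, 1.87, 1.29 and 0.71 in buds. The gap between the tissues was narrow, since bud replicate 4 lay just above root replicate 2, and the difference was 1.27 ± 0.35, or 2.41-fold. Its adjusted p of 0.00864 was the largest among the called members. A second probe gave 1.17 ± 0.27 and was called as well.

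Of the 11 canonical Aux/IAA genes that were not called, 6 had an adjusted p under 0.05 at less than 2-fold. IAA8 was 0.67 ± 0.10 higher in buds (adjusted p = 0.000369), with 4.19 to 4.61 on root arrays and 5.02 to 5.09 on bud arrays. IAA18, which acts in embryo and lateral root patterning, was 0.35 ± 0.09 higher in buds (adjusted p = 0.00772), and IAA26 was 0.50 ± 0.12 higher (adjusted p = 0.00524). The other 3 were higher in roots. The difference was -0.88 ± 0.12 for IAA10 (adjusted p = 0.000197), -0.64 ± 0.09 for IAA16 (adjusted p = 0.000171) and -0.29 ± 0.11 for IAA27 (adjusted p = 0.0323).

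The other 5 canonical genes did not pass the test. IAA4 differed by -0.17 ± 0.12 (adjusted p = 0.21), IAA11 by 0.30 ± 0.15 (adjusted p = 0.102) and IAA12, the partner of MP in the embryo, by -0.18 ± 0.13 (adjusted p = 0.217). IAA19, a regulator of hypocotyl tropism, differed by 0.44 ± 0.24 (adjusted p = 0.117). IAA6 differed by -0.33 ± 0.48 (adjusted p = 0.537), and its bud arrays ranged from -5.95 to -3.53, the widest range of any canonical member within a tissue.

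Among the members without a canonical degron, which are degraded slowly and respond little to auxin, 2 of the 5 tested were called. IAA31 read -2.99, -3.33, -3.69 and -3.72 in roots and -5.51, -6.61, -5.51 and -6.20 in buds. It was 5.77-fold higher in roots, by -2.53 ± 0.29 (adjusted p = 5.63e-05), without overlap. IAA30 read -5.62, -5.29, -5.83 and -6.29 in roots and -4.67, -4.49, -4.46 and -4.32 in buds. It was 2.42-fold higher in buds, by 1.28 ± 0.20 (adjusted p = 0.000461). This call depended on the processing, since the difference was 0.42 after normexp correction and 0.90 after quantile normalization, and neither was called.

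IAA20 and IAA33 overlapped between the tissues and were not called, with differences of 0.68 ± 0.48 (adjusted p = 0.214) and 0.65 ± 0.32 (adjusted p = 0.0882). IAA34 was split by 1 array. It read -6.23, -5.69, -5.77 and -2.88 in roots and -6.33, -7.23, -6.99 and -6.57 in buds. With all arrays the difference was -1.64 ± 0.69 and missed the threshold (adjusted p = 0.0546). IAA34 was called towards roots in 5 of the 17 alternatives, at -1.46 with normexp correction, -1.79 with median scaling, -2.07 with quantile normalization, -1.64 among genes detected on all 8 arrays, and also without root replicate 1. Without root replicate 4 it was -0.88 (adjusted p = 0.012), which is under 2-fold. IAA9, IAA15 and IAA32 had no matched probe.

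**Figure D3:**
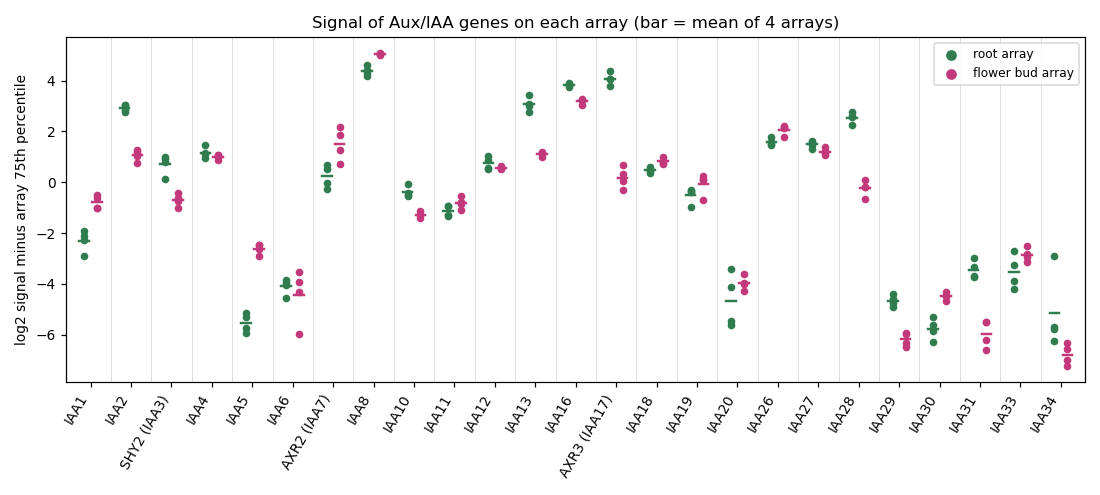
Log2 signal minus the array's 75th percentile for the 25 tested Aux/IAA genes on each array, with roots in green, flower buds in magenta and the mean of 4 arrays as a bar. AXR3, IAA28, IAA13, IAA2 and IAA31 separate downwards in buds, IAA5, IAA1 and IAA30 upwards, and 1 root array of IAA34 lies apart at -2.88.

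Closely related members were then set against each other. For each of 10 pairs, the log2 ratio of the first member to the second was taken on each array, and its change from root to bud was tested with an exact two-sided permutation test over the 8 arrays. A scaling of the whole array cancels from such a ratio. With 70 relabellings the smallest p is 0.0286, which becomes 0.0357 after adjustment over the 10 pairs, and 8 pairs reached it. A pair reaches it whenever its root and bud ratios do not overlap. Among single genes well above background on all 8 arrays, 77.0% did not overlap between the tissues. Ratios of other gene pairs were not compared, so the count of 8 says nothing particular about close relatives. The ratio itself compares different probes and is not read as a level.

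The widest change was in the pair IAA1 and IAA2, whose ratio was higher in buds by 3.36 on the log2 scale, or 10.3-fold, with IAA1 called towards buds and IAA2 towards roots. The IAA12 to IAA13 ratio was 3.41-fold higher in buds, a change of 1.77, with IAA13 alone called. For SHY2 and IAA4 the ratio was 2.37-fold lower in buds, a change of -1.24, and SHY2 alone was called. The change was -1.18, or 2.26-fold, for IAA10 and IAA11, of which neither was called by itself. For IAA6 and IAA19 it was -0.78, or 1.71-fold.

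Among the ARF pairs, ARF6 and ARF8 were both higher in buds, and their ratio still changed by -0.82, or 1.77-fold, because ARF8 differed more. The ratio of ARF11 to ARF18 changed by -0.71, or 1.64-fold. That of ARF10 to ARF16 changed by -0.51, or 1.42-fold, but the sign turned to 0.32 when all probes of a gene were averaged. The change was -0.15 for IAA18 and IAA26 (exact permutation p = 0.114, adjusted 0.127) and -0.59 for IAA20 and IAA30 (exact permutation p = 0.314, adjusted 0.314). In the last pair the root ratios spread from 0.16 to 1.86. Their misses do not show that the members of these pairs behave alike.

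**Figure D4:**
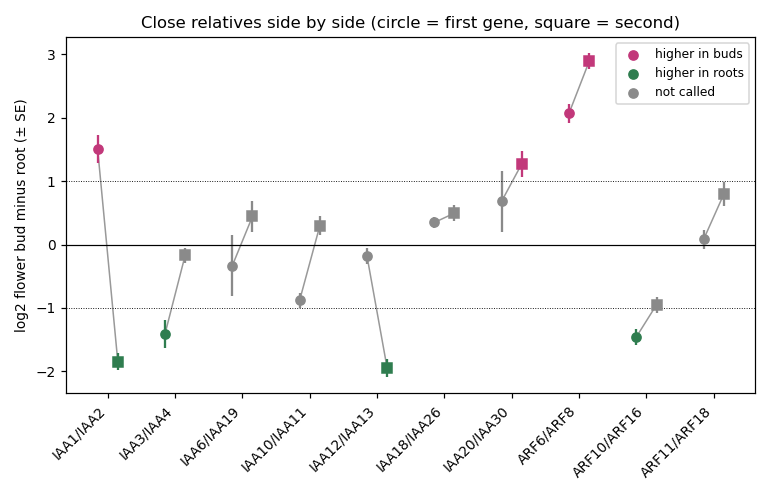
Tissue difference of both members of the 10 pairs, as log2 flower bud minus root with the standard error; a circle is the first gene named and a square the second, and dotted lines mark 2-fold. The steepest line joins IAA1 at 1.51 to IAA2 at -1.85, while IAA18 and IAA26 lie close together at 0.35 and 0.50.

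Position did not go with direction in a single way. In the RefSeq gene order IAA2 and AXR2 are direct neighbours on chromosome 3, with no protein-coding gene between them, and were called in opposite directions. SHY2 and AXR3 are direct neighbours on chromosome 1 and were both higher in roots. With only these 2 neighbouring pairs, no comparison with other genes was made.

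Single arrays contributed unevenly within the tissues. Root replicate 4 held the lowest root value for 13 of the 25 Aux/IAA and 7 of the 12 ARF genes. Root replicate 3 held the highest root value for 9 of the 12 ARF genes and 6 of the 25 Aux/IAA genes. Relative to the root means, the median Aux/IAA gene stood at 0.13, 0.11, -0.02 and -0.24 on root replicates 1 to 4, and the median ARF gene at -0.03, -0.03, 0.23 and -0.15. In buds the medians stayed within -0.12 to 0.07 for Aux/IAA and -0.12 to 0.12 for ARF.

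Upstream of the members, the auxin receptors and their ubiquitin ligase differed little between the organs. Of the 15 genes, 1 was called, with a list median of -0.20. This was AFB2, an F-box receptor, which read 1.00, 1.12, 1.28 and 1.00 in roots and -0.43, -0.46, -0.37 and -0.29 in buds. Its difference was -1.48 ± 0.10 (adjusted p = 1.52e-06), and -0.94 with reference gene scaling, where it was not called. RCE1, an enzyme of the RUB modification that activates the ligase, differed by -0.93 ± 0.09 and stayed under 2-fold. None of the 5 TOPLESS co-repressors was called, with a median of -0.46, smaller in size than the shift of 0.54 that reference gene scaling brings. Of these, TPL differed by -0.68 ± 0.10 and TPR3 by -0.50 ± 0.13. With reference gene scaling the sign of TPR3 turned, to 0.044. In limma's test 4 of these 5 had an adjusted p under 0.05.

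Auxin synthesis and transport genes were called in both directions. A gene detected in 1 organ alone enters the test through that organ and can hardly go uncalled, so counts are given over genes detected on all 8 arrays, meaning well above background. Of all genes so detected, 22.3% were called higher in buds and 24.7% higher in roots, and these short lists were not tested against those shares. Of the 14 synthesis genes 10 were tested and 5 were detected on all 8 arrays, of which 1 was higher in buds and 2 were higher in roots. YUC1 and YUC2, flavin monooxygenases that make auxin, were not well above background on any root array and were at least 13.4-fold and at least 22.9-fold higher in buds. YUC9 was not well above background on any bud array and was at least 116-fold higher in roots. YUC5 was called towards roots at -3.88 ± 1.36 (adjusted p = 0.0272), but bud replicate 2 stood at -3.89 and the other bud arrays near -10.1, so the tissues overlapped. The call of YUC5 was lost when any 1 of 6 of the arrays was left out. Of the 15 transport genes 13 were detected on all 8 arrays, with 3 higher in buds, 5 higher in roots and 5 not called. PIN2, the efflux carrier of the root epidermis and cap, differed by -6.29 ± 0.11, and ABCB4, a transporter of the root epidermis, by -6.74 ± 0.12. PIN8 and PIN5, carriers of the endoplasmic reticulum, were higher in buds, PIN8 by at least 14.9-fold and PIN5 by 12.1-fold in the fit. Of the root arrays, 1 of 4 detected PIN5.

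Downstream, the early auxin-response families split by member. Of the 7 tested GH3 genes, which conjugate auxin to amino acids, 6 were detected on all 8 arrays, 3 higher in buds and 3 higher in roots. For comparison, 46.9% of all genes detected on all 8 arrays were called. GH3.9, not detected on any root array, was at least 40.4-fold higher in buds, and GH3.3 was higher there by 4.46 ± 0.32. GH3.1 and GH3.2 were both higher in roots, with differences of -2.82 ± 0.16 and -2.82 ± 0.17. The SAUR list, a family of small regulators of cell expansion, took every gene with that symbol or synonym plus a number. The name SAUR21 covered both a locus at -5.58 and a locus at 8.22, and family membership was not checked beyond the name. Of the 67 tested genes of this list, 26 were detected on all 8 arrays. Of these 26, 7 were higher in buds, 15 higher in roots and 4 not called, with a median of -1.91. Among all genes detected on all 8 arrays, 22.3% were higher in buds and 24.7% higher in roots. Over all 67 the calls were 41 towards buds and 19 towards roots. Of those 41 genes, 34 were not detected on all 4 root arrays, and of the 19, 4 were not detected on all 4 bud arrays. The direction in which the list leaned thus depended on the filter. The summed signal of the 67 genes was 35.7 to 41.8 on root arrays and 21.7 to 29.2 on bud arrays, in units of the 75th percentile. SAUR63 and SAUR20 were at least 292-fold and at least 206-fold higher in buds, and SAUR55 was at least 585-fold higher in roots. The difference of SAUR38 was -7.38 ± 0.63, and its probe was detected on 1 of 4 bud arrays.

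Of the LBD genes, targets of ARF proteins in lateral root formation, LBD18 alone was detected on all 8 arrays, and it was higher in roots by a difference of -2.36 ± 0.12. LBD16, LBD17 and LBD29 were detected on every root array and no bud array, so the filter largely fixed their direction. LBD16 was at least 142-fold and LBD29 at least 56.0-fold higher in roots. LBD33 was too dim to test. LBD17 and LBD18 are named here after their values were seen. The microRNA and TAS3 loci that target ARF and receptor transcripts had no matched probe, so no level can be set beside those of ARF6, ARF8, ARF10, ARF16 and ARF17. The plot of the pathway lists shows narrow spreads for receptors and co-repressors and wide spreads for SAUR, transport and synthesis genes.

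**Figure D5:**
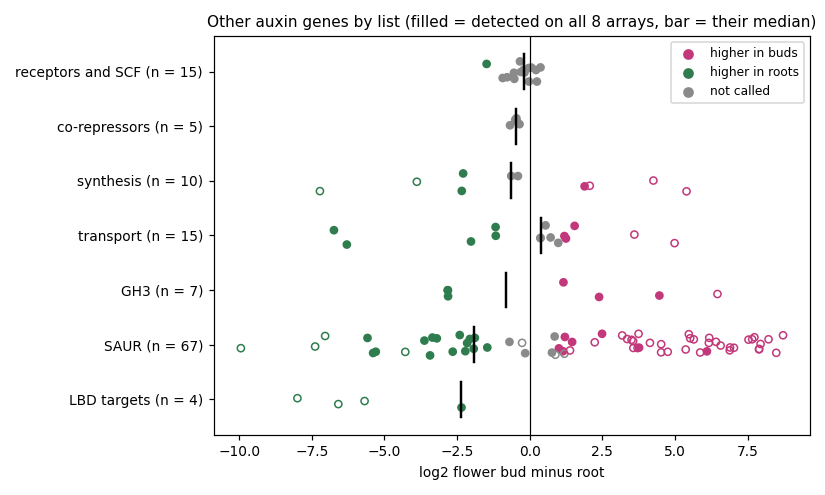
Tissue difference of the tested genes of 7 auxin pathway lists, as log2 flower bud minus root; each point is a gene, filled where it was detected on all 8 arrays, and the bar is the median of the filled points. Receptors and co-repressors stay within 2-fold except AFB2, which alone was called, at -1.48. The filled SAUR points have a median of -1.91, and most open SAUR points lie on the bud side.

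Some of the calls depended on how the arrays were scaled. Scaling on the 6 reference genes, whose own median difference was -0.52, moved every difference up by 0.54. The members SHY2, IAA29, ARF9, ARF10 and ARF17 then stayed negative but fell under 2-fold, so that no ARF gene was called towards roots. IAA8, IAA20, IAA26, IAA33 and ARF18 were then called towards buds. AXR3, IAA28, IAA13, IAA2, IAA31, IAA5, IAA1, AXR2, MP, ARF6 and ARF8 were called in the same direction under every scaling tried and with any single array left out.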

How the data were processed

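The deposited scanner files, 1 per array, hold linear intensity for every spot. Per the file headers, background subtraction and the flags for detection, saturation and outlier spots came from Agilent's Feature Extraction 10.10.1.1. No spot was saturated, and 408 duplicate lines in 6 files were removed. The deposited log2 value table comes without a stated method in the sources used here. Its columns tracked log2 signal that was scaled to the 75th percentile and centred per probe (r of at least 0.999 per array). The column medians were -0.0105, 0.0948, 0.0898 and 0.0252 (roots) and -0.00796, -0.0549, -0.0407 and -0.0582 (buds). The table served as an alternative.

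Control spots and 6 to 191 outlier spots per array were dropped, and spots of a probe were averaged. The log2 processed signal was then expressed relative to the array's 75th percentile, an intensity of 2560 to 3574 on root arrays and 4661 to 4803 on bud arrays. Of 43603 probes, 34285 were assigned to 1 locus through transcript accessions in RefSeq and 9318 to none. The brightest probe by mean stood for a locus. IAA4, IAA26 and IAA27 were found through synonyms. A gene was tested when at least 1 tissue had its probe above background on all 4 arrays. The model was fitted in R 4.3.3 with limma 3.58.1, had tissue as its only term, and used Benjamini-Hochberg adjustment. A probe undetected throughout 1 tissue has its fold given as a bound ("at least"). The dim side of the bound is, per array, the larger of the probe's signal and the faintest detected signal. Some undetected probes read above that faintest signal, so it is not a strict detection limit. The words "at least" hold under this definition alone. Pairs were tested with SciPy 1.17.1. The fit was also run on simulated data with independent normal noise. These held no shift of scale, no detection floor and no effect of slide row, so the run does not bear on those limits.

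The number of arrays limits the precision. The arrays shared 1 slide and 1 scan date, with each tissue in its own row of the slide, and the effects of row and organ cannot be told apart. The members, lists, groups and pairs were chosen with earlier results of these data known. Every member is accounted for. Each pathway list contributes by name its 2 called genes that differ most in either direction, or its 2 most different genes where fewer than 2 were called. Other list genes are given by counts. Degron groups and pairs follow general knowledge of the families, since no protein sequences were used here. ARF23 was placed with the other ARF genes after the groups were fixed. A few genes of the families are not reported here. Alternatives were normexp correction (offset 50, on the median spot signal), scaling on the array median or on reference genes, quantile normalization, no filter or a stricter one on dim probes, averaging a gene's probes, the value table, a replicate block, and leaving out each array.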

Additional observations from a re-analysis of the deposited data

Results flagged for a closer look

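In 10 cases, among 118 sets of 4 arrays of the named genes, 1 array stood apart from the other 3 of its tissue by more than Dixon's 95% limit, and chance alone flags about 1 set in 20. Bud replicate 3 stood apart in 4 members, high for ARF6 at 2.22 (others 1.79 to 1.86) and ARF11 at -1.66 (others -2.26 to -2.18), and low for IAA13 at 0.99 (others 1.14 to 1.17) and IAA16 at 3.04 (others 3.24 to 3.27). Root replicate 4 stood apart in IAA19, low at -0.97 (others -0.38 to -0.32), and in IAA34, high at -2.88 (others -6.23 to -5.69). It was also low for YUC9 at -3.54 (others -1.59 to -1.47) and for YUC5 at -5.33 (others -4.49 to -4.33).

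YUC5 stood apart in buds too, where bud replicate 2 read -3.89 and the others -10.10 to -10.07. SAUR55 read -8.77 on bud replicate 1 and -10.29 to -10.08 on the other bud arrays, none of which was well above background.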

How the results depend on the processing

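For all genes 6708 were called towards buds and 5512 towards roots, and for the pathway lists 54 and 36. Requiring signal well above background on all 8 arrays left 4008 of 18003 genes and 14 of 71 list genes called towards buds, fewer genes being tested. With reference gene scaling 8 Aux/IAA genes were called towards buds and 0 ARF genes towards roots. Without a filter on dim probes 18 ARF genes were tested and 8 were called towards roots. The added calls came from genes under the filter, most of which were not well above background on any array. The faintest detected signal was -8.90 to -6.94 on root arrays and -9.26 to -8.97 on bud arrays. The added calls are therefore not read as tissue differences. Leaving out each array in turn gave 6587 to 6744 calls towards buds and 5470 to 5550 towards roots over all genes, 4 to 5 and 7 to 8 for Aux/IAA, 3 to 3 and 2 to 4 for ARF, and 53 to 57 and 35 to 36 for the lists. The sign turned for genes that were not called. Reference gene scaling gave 0.46 for ARF2, 0.37 for IAA4, 0.21 for IAA6, 0.36 for IAA12, 0.25 for IAA27 and 0.044 for TPR3. Median scaling gave -0.068 for ARF4 and -0.073 for ARF11, and quantile normalization -0.073 for ARF11. Leaving out 1 array gave -0.15 to 0.029 for ARF2 (positive without root replicate 3), -0.035 to 0.26 for ARF4 (negative without root replicate 4 or bud replicate 3), -0.059 to 0.14 for ARF11 (negative without bud replicate 3) and -0.63 to 0.17 for IAA6 (positive without bud replicate 4). Averaging all probes turned the ARF10 to ARF16 ratio to 0.32 and ended the call of ARF10 (-0.64). Normexp correction ended ARF17 (-0.92). IAA10 joined the calls with normexp correction (-1.03) and with median scaling. ARF16 joined with median scaling (-1.11) and without bud replicate 2. IAA34 joined in 5 alternatives, and IAA20 was also called, towards buds, without root replicate 2. The call of YUC5 was lost without any 1 of 6 arrays. The cause of these changes was not tested. The replicate numbers were not used as pairs in the main fit. Same-numbered root and bud arrays shared a slide column and correlated at -0.13, 0.10, 0.10 and 0.13 in their deviations. Such values from 4 arrays per tissue cannot show whether the pools were paired. A replicate block gave 6673 and 5505 calls over all genes, 4 and 7 for Aux/IAA, 3 and 3 for ARF, and 53 and 36 for the lists. With 3 arrays against 4 the smallest exact p for a pair is 0.0571, so no pair can pass there.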
